A study of Mus musculus with 12 samples.

Results

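The genes of the 4 mouse Hox clusters were followed in C57MG cells, a mouse mammary epithelial line, after treatment with R-spondin 2 (Rspo2), Wnt3a or both proteins. A Hox gene was any gene of the array whose name was Hox, a cluster letter from a to d and a number. This gave 38 genes of the 28786 gene names on the array, measured by 49 probes in 58 spots per array. Of these genes, 27 had 1 probe and 11 had more, and each gene was represented by its probe with the highest mean signal. Hoxc11, the remaining gene of the 39 in the RefSeq annotation of GRCm38.p6, was not analysed here.

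Hox genes encode homeodomain transcription factors that assign position along the body axis. They lie in 4 clusters on different chromosomes, and genes with the same number in different clusters form a paralog group, from group 1 at the anterior end to group 13 at the posterior end. Neighbouring genes are often switched on in order along the cluster. Polycomb proteins keep silent clusters off and Trithorax proteins keep active genes on, while Wnt proteins and retinoic acid are known inducers of Hox genes in the embryo. Cells in culture usually retain the Hox pattern of the tissue they came from. Rspo2 is a secreted protein that enhances signalling by Wnt proteins such as Wnt3a.

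All 4 groups were C57MG monolayers moved to plain DMEM, without the serum and insulin of their growth medium, for 24 h. They received recombinant human Rspo2 at 100 ng/ml, recombinant mouse Wnt3a at 100 ng/ml, both proteins, or the carrier bovine serum albumin (BSA) as control. There were 3 biological replicates per group, each hybridised in 1 colour to its own array, so that 12 arrays on 3 slides were used. All samples were of 1 cell line, and C57MG was not compared with other mammary cells. Slide 1 held the 3 BSA arrays and Rspo2 array 1, slide 2 held Rspo2 arrays 2 and 3 and Wnt3a arrays 1 and 2, and slide 3 held Wnt3a array 3 and the 3 arrays of both proteins. The share of all probes well above background was 64.17% on BSA array 1 and 61.74% on array 1 of both proteins, against 51.28% to 58.8% on the other 10 arrays.

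The labelled cell type was checked with marker genes. Of 9 luminal and pan-epithelial markers, 3 were detected (Krt8, Krt7 and Cldn3), and Cdh1, which encodes E-cadherin, and Elf5, a luminal regulator, were not above background on any array. Of 7 basal and myoepithelial markers 5 were detected, and of 10 mesenchymal markers 9. Signals are given below as log2 of the intensity over the array's own 75th percentile, so that 0 is the 75th percentile, and levels are not compared between genes, whose probes differ.

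Detection of a Hox gene required a probe well above background throughout 1 group or more, that is on each of its 3 arrays. By this rule 12 of the 38 genes were detected, 4 in HoxA, 7 in HoxB, 1 in HoxC and none in HoxD. HoxB (chr11:96194316-96368254 on GRCm38.p6) was the cluster with an unbroken run: Hoxb3, Hoxb4, Hoxb5, Hoxb6, Hoxb7, Hoxb8 and Hoxb9 were all detected, and Hoxb1, Hoxb2 and Hoxb13 were not. In HoxA (chr6:52155367-52260880) Hoxa3, Hoxa5 and Hoxa9 were among the detected genes, with undetected genes between them. In HoxC (chr15:102921131-103036856) Hoxc4 was detected of 8 genes with a probe. In HoxD (chr2:74668225-74765142) 7 of 9 genes were not above background on any array.

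**Figure D1:**
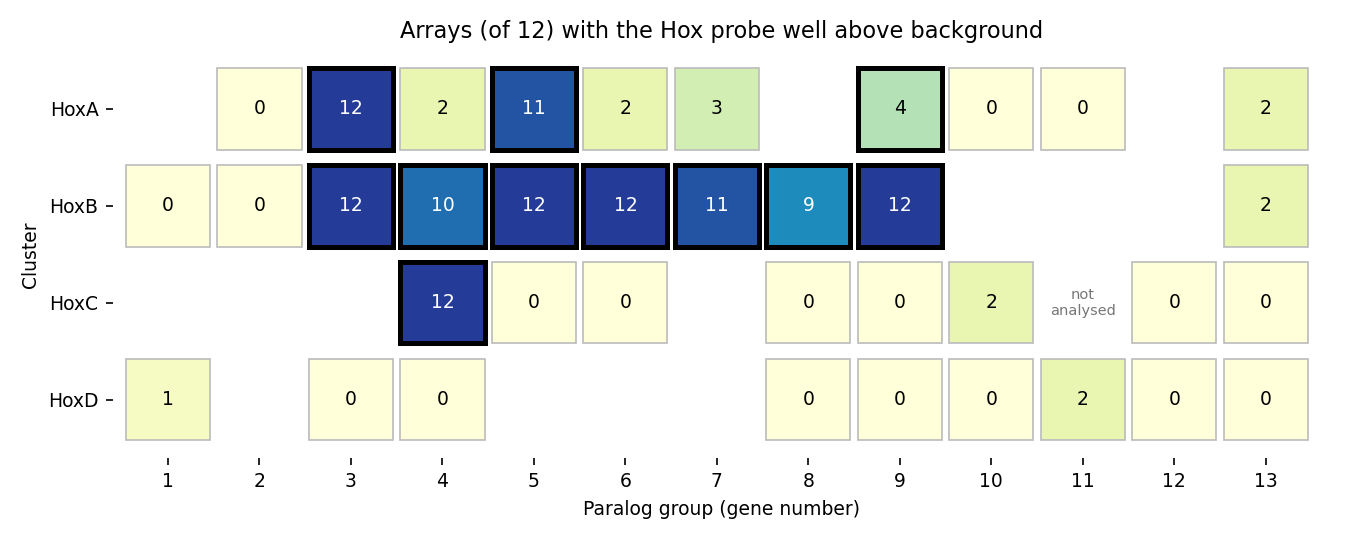
Each box is a Hox gene reported individually, placed by cluster (rows) and paralog group (columns). The number and the shade give how many of the 12 arrays had its probe well above background, and a thick edge marks detection; the run from Hoxb3 to Hoxb9 is the longest row of thick edges.

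By position, 3 of 8 genes of paralog groups 1 to 3 were detected, 7 of 15 of groups 4 to 8, and 2 of 15 of groups 9 to 13. The posterior genes detected were Hoxa9 and Hoxb9, and no gene of groups 10 to 13 was. Of the 12 detected genes 7 were well above background on all 12 arrays, among them Hoxa3, Hoxb3, Hoxb5, Hoxb6, Hoxb9 and Hoxc4. Hoxa5 and Hoxb7 were so on 11 arrays, Hoxb4 on 10, Hoxb8 on 9 and Hoxa9 on 4. In bulk RNA, fewer cells expressing a gene and less of its RNA per cell cannot be told apart. The Hoxb3 probe is annotated to transcripts of both Hoxb3 and Hoxd3, and the 2 probes of Hoxd3 alone were not above background on any array. A second probe of Hoxb6 and of Hoxb9 was also detected, and the second probes of Hoxa3 and Hoxb8 were not.

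Of the 26 undetected genes 18 were not above background on any array, and the other 8 were above it on at most 3 arrays (Hoxa4, Hoxa6, Hoxa7, Hoxa13, Hoxb13, Hoxc10, Hoxd1 and Hoxd11). The median intensity of an undetected gene over the arrays was between 4.56 and 19.4. Of the 8 genes, 7 were above background on BSA array 1 and 6 on array 1 of both proteins, the same arrays that had the most probes of any kind above background, and 5 were above background on no other array. Hox genes above background numbered 19, 11 and 9 on BSA arrays 1 to 3, 9, 10 and 12 with Rspo2, 11 on each Wnt3a array, and 18, 12 and 12 with both proteins. The limit was not the same on each array. The dimmest signal well above background was 42.4 and 36.2 on BSA arrays 2 and 3 and 43.8 on Rspo2 array 1. On the remaining arrays it was 15.4 to 26.4, so a signal of the same intensity could count on 1 array and not on another. BSA array 1 and array 1 of both proteins stood well clear of the other arrays, which had 9 to 12. The detected genes remained 12 without either or both arrays. For some undetected genes 1 array stood out: Hoxd1, an anterior HoxD gene, had an intensity of 89.2 on Wnt3a array 3 and at most 12.1 elsewhere, and Hoxd11, a posterior limb gene, had 72.5 on BSA array 1 and at most 27.1 elsewhere. Such values were not shared by the replicates of the group.

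**Figure D2:**
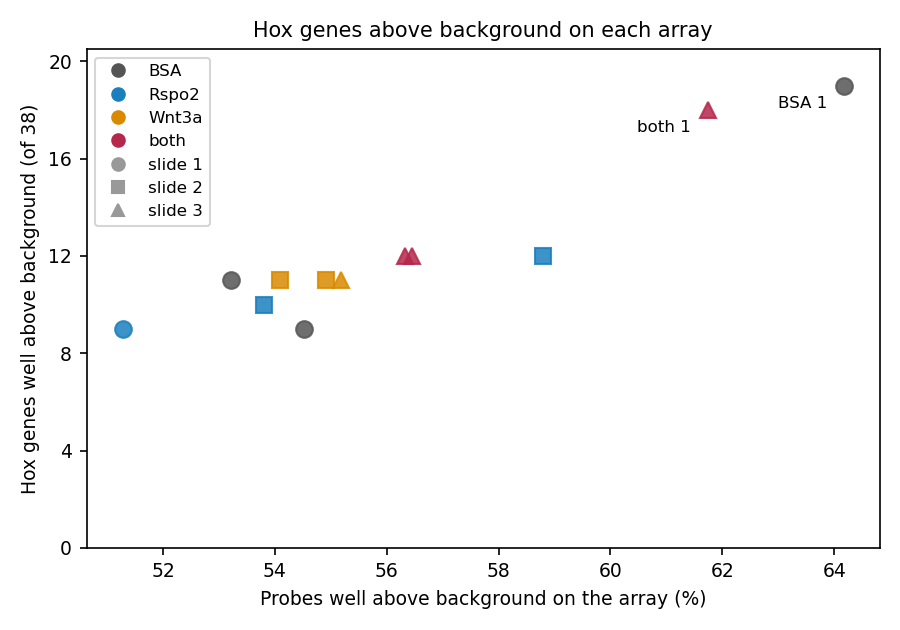
Number of Hox genes well above background (vertical axis, of 38) against the share of all probes well above background (horizontal axis, %) on each of the 12 arrays, coloured by group with the slide as marker shape. BSA array 1, with 19 genes at 64.17%, and array 1 of both proteins, with 18 genes at 61.74%, sit apart from the other arrays.

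The promoter sequences of 4 Hox genes are shown. Hoxa5 and Hoxb8 had arrays that separated by treatment, and Hoxa9 was above background on few arrays, mostly those of both proteins. Hoxd8 is an undetected gene of HoxD, the cluster without a detected gene. Its promoter holds the most matches to a Tcf/Lef-like motif among the Hox promoters. Each is the RefSeq promoter on GRCm38.p6, 300 bases, 5′ to 3′ on the gene's strand: Hoxa5 at chr6:52204538-52204837 and Hoxa9 at chr6:52227321-52227620 on the minus strand, Hoxb8 at chr11:96281655-96281954 and Hoxd8 at chr2:74704365-74704664 on the plus strand. Those of Hoxa5, Hoxa9 and Hoxd8 span the start of the annotated gene. That of Hoxb8 lies inside the annotated gene, downstream of its start at chr11:96279401. Capitals mark CTTTGAA or CTTTGAT (a Tcf/Lef-like motif) and TATAAA on either strand, so that TATAAA on the other strand reads TTTATA.
Hoxa5: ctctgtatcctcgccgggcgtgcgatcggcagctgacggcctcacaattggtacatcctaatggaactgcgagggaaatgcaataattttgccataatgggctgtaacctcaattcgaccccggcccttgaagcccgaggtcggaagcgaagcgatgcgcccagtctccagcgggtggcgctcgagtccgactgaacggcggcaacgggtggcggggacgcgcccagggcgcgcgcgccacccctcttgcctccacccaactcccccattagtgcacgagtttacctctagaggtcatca
Hoxa9: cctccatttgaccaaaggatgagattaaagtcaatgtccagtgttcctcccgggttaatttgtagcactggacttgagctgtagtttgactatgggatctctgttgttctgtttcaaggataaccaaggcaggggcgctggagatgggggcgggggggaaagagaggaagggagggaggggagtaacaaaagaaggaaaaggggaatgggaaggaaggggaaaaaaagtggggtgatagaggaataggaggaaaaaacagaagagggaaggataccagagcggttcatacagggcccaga
Hoxb8: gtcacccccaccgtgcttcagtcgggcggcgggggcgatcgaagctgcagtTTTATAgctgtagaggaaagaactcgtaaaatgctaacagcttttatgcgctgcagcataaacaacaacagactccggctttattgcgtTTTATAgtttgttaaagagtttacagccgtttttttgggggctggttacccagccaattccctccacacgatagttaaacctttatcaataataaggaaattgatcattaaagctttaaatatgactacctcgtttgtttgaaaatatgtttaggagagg
Hoxd8: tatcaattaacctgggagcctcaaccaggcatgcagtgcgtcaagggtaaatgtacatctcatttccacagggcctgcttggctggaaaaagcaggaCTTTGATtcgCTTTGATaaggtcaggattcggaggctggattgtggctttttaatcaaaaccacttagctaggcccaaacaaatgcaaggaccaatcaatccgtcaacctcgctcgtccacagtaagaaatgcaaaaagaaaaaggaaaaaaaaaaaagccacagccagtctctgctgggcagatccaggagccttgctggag

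The Hoxd8 promoter held 2 Tcf/Lef-like matches, while Hoxd8 was not above background on any array. The Hoxb8 promoter held 2 TATAAA matches and no Tcf/Lef-like match, and the Hoxa5 and Hoxa9 promoters held neither. Over the 24 Hox promoters of the table (22 genes), 3 held a Tcf/Lef-like match, or 12.5%, against 8.65% of all 32851 promoters of the same length. All 3 were of undetected genes (Hoxa11, Hoxd8 and Hoxd12), and the 6 promoters of detected Hox genes held none. TATAAA was in 16.7% of Hox promoters and in 13.6% of all promoters. Hox promoters held a median of 14.5 CpG dinucleotides, with a range of 4 to 45, against a median of 7 over all promoters. The Hoxa5 promoter had 29 and the Hoxa9 promoter 4. Promoters of Hoxb9, Hoxb3, Hoxb5, Hoxb6 and Hoxb7 were not analysed here. A match describes these letters only and is not a binding site.

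There were 5 comparisons. Each treatment was set against BSA, both proteins were also set against Wnt3a, and the interaction was the change with both proteins minus the sum of the single changes. A probe was called at a Benjamini-Hochberg adjusted p under 0.05 over all 22751 detected probes and at least a 2-fold change in a limma fit over all 12 arrays. No detected Hox gene was called in any of the 5 comparisons. Over all detected probes the share called was 0.721% for Rspo2 against BSA, 2.52% for Wnt3a against BSA, 5.08% for both proteins against BSA, 0.747% for both proteins against Wnt3a, and 1.93% for the interaction, shares at which fewer than 1 of 12 genes would be called. At an unadjusted p under 0.05, the limma fits gave 4, 2, 4, 3 and 4 of the 12 genes in that order, against 35%, 43%, 47.9%, 18.4% and 29.3% of all detected probes. The methods' t-test with a 2-fold change gave 0, 0, 0 and 1 genes without adjustment in the first 4 of these comparisons, the 1 being Hoxa9 with both proteins against Wnt3a, and 0 in each of the 4 after adjustment. It was not run for the interaction.

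The intervals of these 12 genes more often left room for a 2-fold change than those of the array as a whole. The 95% interval of the change lay within 2-fold in both directions for 7 of the 12 genes in each comparison with BSA (Rspo2, Wnt3a and both proteins, in that order), against 91.5%, 86.8% and 83.6% of all detected probes. For Hoxa9, Hoxb4 and Hoxb7 the interval reached past 2-fold in each of these comparisons, so a 2-fold difference was not excluded. For genes such as Hoxb5 and Hoxb6 the interval left no room for one. The median log2 change of the 12 genes was -0.16 with Rspo2, -0.26 with Wnt3a and 0.08 with both proteins, against 0.01, 0.00 and 0.04 over all detected probes. Of the 12, 3 were higher and 9 lower with Rspo2, the same counts held for Wnt3a, and 7 were higher and 5 lower with both proteins, where 51.5%, 50% and 54.4% of all detected probes were higher. These comparisons share the BSA arrays. With both proteins against Wnt3a 10 were higher and 2 lower (median 0.25), and in the interaction 10 were higher and 2 lower (median 0.40), where 50.9% and 49.7% of all detected probes were higher. Hoxa9 entered the 12 only through the arrays of both proteins, where it was high, so these counts and medians are given as a description.

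**Figure D3:**
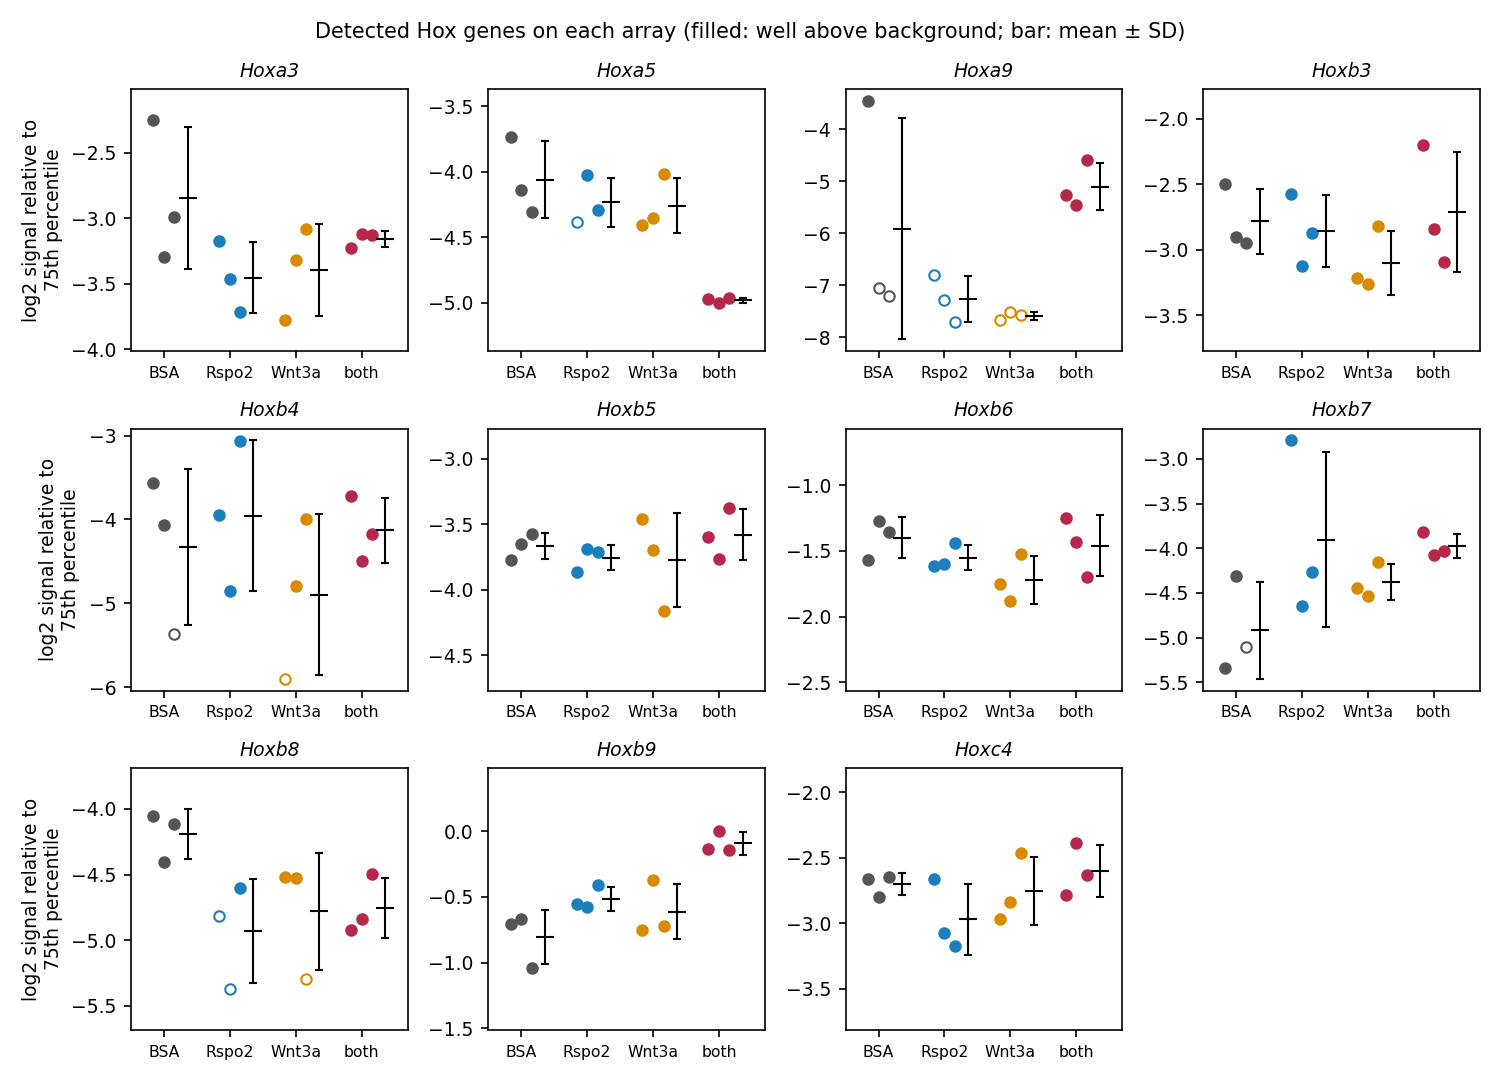
log2 signal over the array's 75th percentile (vertical axis, scaled separately per gene) for detected Hox genes on each array, by treatment. The limit for a signal well above background differed between arrays. Filled points were well above background, open points were not, and bars give the mean ± SD of 3 arrays; Hoxb9 sits highest and Hoxa5 lowest with both proteins, and Hoxa9 has 3 filled points with both proteins against 1 with BSA.

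At an adjusted p under 0.05 without the fold threshold, 2 of the 12 genes passed with both proteins against BSA, Hoxb9 higher and Hoxa5 lower, where 39.2% of all detected probes did so (21.9% higher and 17.3% lower). The same 2 genes passed with both proteins against Wnt3a, where the background was 4.27% (1.78% higher and 2.49% lower). None passed with Rspo2 alone (background 16.8%), with Wnt3a alone (31.5%) or in the interaction (8.9%).

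Hoxb9, a posterior HoxB gene with known roles in mammary gland development, rose with both proteins. Its log2 signals were -0.71, -0.67 and -1.04 on the BSA arrays, -0.56, -0.58 and -0.41 with Rspo2, -0.75, -0.37 and -0.72 with Wnt3a, and -0.14, 0.01 and -0.14 with both proteins. All 3 arrays of both proteins were above all other arrays, and the Rspo2 arrays were above the BSA arrays, while Wnt3a and BSA overlapped. In intensity this was 526 to 722 with BSA and 856 to 963 with both. The log2 change with both proteins against BSA was 0.71 (SE 0.126, 95% interval 0.435 to 0.989, limma adjusted p = 0.00147), and against Wnt3a it was 0.52 (limma adjusted p = 0.0422). The change was 0.29 with Rspo2 (limma adjusted p = 0.128) and 0.19 with Wnt3a (limma adjusted p = 0.274), and the interaction was 0.23 (limma adjusted p = 0.408), so the change with both was not shown to differ from the sum of the single changes. The second Hoxb9 probe gave 0.70 against BSA and 0.48 against Wnt3a (limma adjusted p = 0.000812 and 0.0373).

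Hoxa5, a mid-cluster HoxA gene known to act in the lung and the mammary epithelium, fell with both proteins. Its log2 signals were -3.74, -4.14 and -4.31 on the BSA arrays, -4.38, -4.03 and -4.30 with Rspo2, -4.41, -4.35 and -4.02 with Wnt3a, and -4.974, -5.002 and -4.964 with both proteins. The 3 arrays of both proteins lay below the other 9 arrays, and the other groups overlapped each other. The log2 change with both proteins was -0.92 against BSA (SE 0.154, 95% interval -1.26 to -0.58, limma adjusted p = 0.00113) and -0.72 against Wnt3a (limma adjusted p = 0.0247). With Rspo2 it was -0.17 and with Wnt3a -0.20 (limma adjusted p = 0.45 and 0.356), and the interaction was -0.55 (limma adjusted p = 0.128). Its signal was weak: intensities with both proteins were 29.9 to 33.9, where the dimmest probe above background on those arrays had 19 to 23.3.

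Only slide 3 held both proteins and Wnt3a, with 3 arrays against 1, and there Hoxb9 differed by 0.63 and Hoxa5 by -0.96 on the log2 scale. BSA and both proteins never shared a slide. A blocked change between them therefore runs through single arrays, Rspo2 array 1 on slide 1 and Wnt3a array 3 on slide 3, joined by slide 2. With slide as a block, Hoxb9 kept its direction with both proteins against BSA at 0.81 (limma adjusted p = 0.25) and Hoxa5 at -1.50 (limma adjusted p = 0.0526), and neither passed. Against Wnt3a neither passed under the block, with limma adjusted p = 0.214 for Hoxb9 and 0.0602 for Hoxa5. With background correction by normexp the values were 0.61 (limma adjusted p = 0.0544) and -0.71 (limma adjusted p = 0.511).

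**Figure D4:**
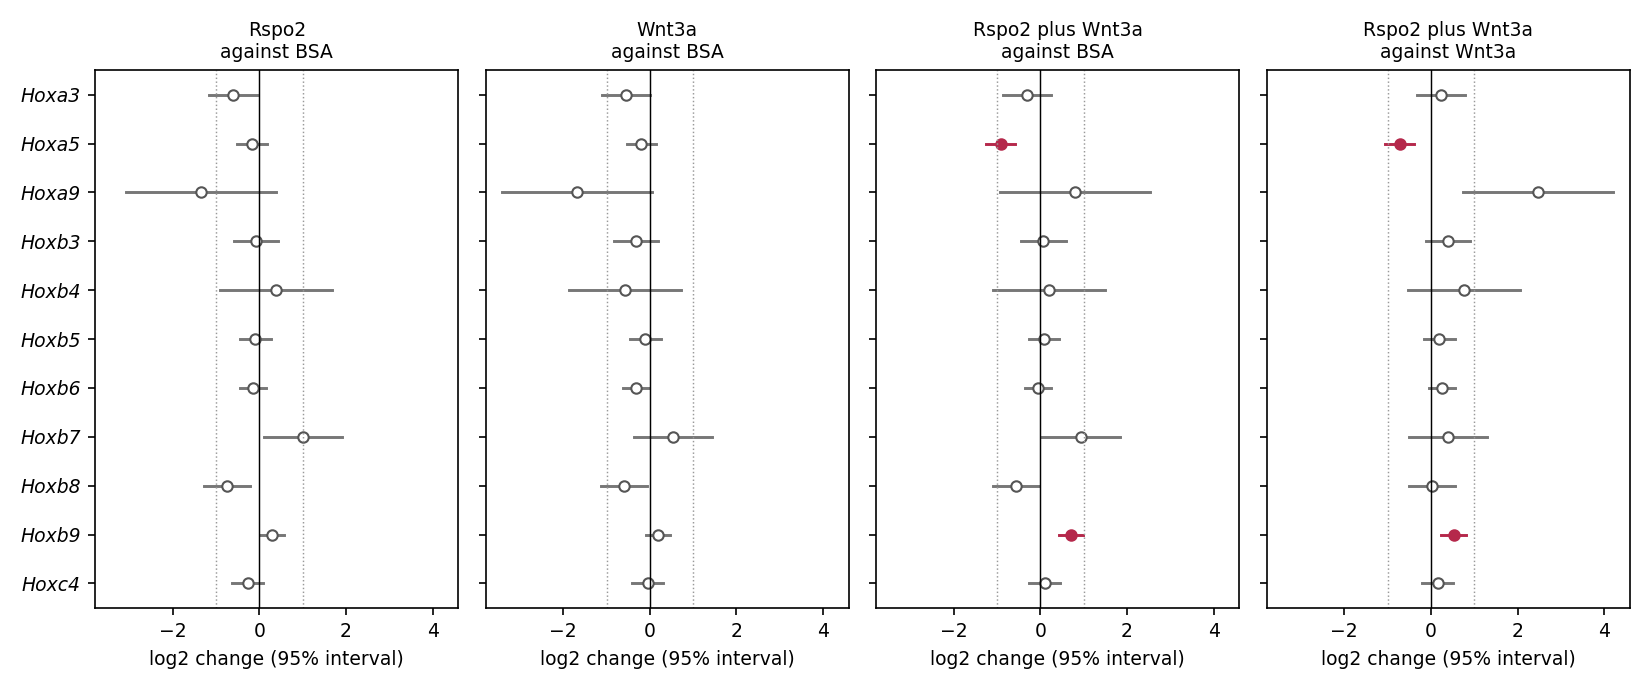
log2 change of detected Hox genes (points) with its 95% interval (lines) in 4 comparisons, with dotted lines at 2-fold in either direction. Red marks an adjusted p under 0.05, reached by Hoxb9 and Hoxa5 in the 2 comparisons of both proteins; the interval of Hoxa9 is wide in each panel.

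Hoxa9, a posterior HoxA gene best known from blood stem cells and leukaemia, crossed the background level in few arrays. Its log2 signals were -3.46, -7.06 and -7.21 on the BSA arrays, -6.81, -7.29 and -7.70 with Rspo2, -7.68, -7.51 and -7.58 with Wnt3a, and -5.26, -5.46 and -4.60 with both proteins. It was well above background on the 3 arrays of both proteins and on BSA array 1, and on no array of Rspo2 or Wnt3a. BSA array 1, at an intensity of 86.5, was the brightest of all 12 and the other BSA arrays were 8.59 and 7.28, so the BSA arrays span the group of both proteins.

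The Hoxa9 change with both proteins was 0.80 against BSA (SE 0.784, limma adjusted p = 0.454). Against Wnt3a it was at least 1.18-fold higher, set against the dimmest signals well above background, with a limma adjusted p of 0.119, and the interaction had a limma adjusted p of 0.0559. These values rested on BSA array 1. Without it Hoxa9 was called higher with both proteins against BSA, at a fitted log2 change of 2.03 (limma adjusted p = 0.000729), against Wnt3a and in the interaction. Neither of the remaining BSA arrays was above background, so the size of the change against BSA is not certain. Hoxa9 was detected only through the arrays of both proteins. Its calls without BSA array 1 therefore follow in part from the detection rule and are no separate support. Without both BSA array 1 and array 1 of both proteins, an alternative chosen after the values were seen, the fitted change against BSA was 2.11 (limma adjusted p = 0.00211). With normexp (-0.08) and with a floor on dim signals (-0.74) the direction against BSA turned.

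Hoxb7, a mid-cluster gene studied in breast cancer cells, had log2 signals of -5.34, -4.31 and -5.10 on the BSA arrays, -2.79, -4.65 and -4.27 with Rspo2, -4.45, -4.54 and -4.15 with Wnt3a, and -3.82, -4.07 and -4.03 with both proteins. The arrays of both proteins were above all BSA and Wnt3a arrays, whereas Rspo2 overlapped BSA and its array 1 was the highest of the 12. The log2 change was 1.01 with Rspo2, 0.54 with Wnt3a and 0.94 with both proteins (limma adjusted p = 0.105, 0.341 and 0.0898). On slide 1, Rspo2 array 1 was 2.12 above the mean of the BSA arrays, and with slide as a block Hoxb7 was called higher with Rspo2 at that value (limma adjusted p = 0.0435). That call compares a single Rspo2 array, the highest of the 12, with the BSA arrays and takes its spread from the other groups. It was also called with median scaling, at 1.18 with Rspo2 and 1.16 with both proteins (limma adjusted p = 0.0451 and 0.0268), and with both proteins without BSA array 2 (1.25, limma adjusted p = 0.0494). With normexp the direction turned for Wnt3a (-0.14) and for both proteins (-0.05).

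Hoxb8, its neighbour, known from blood progenitors and the brain's microglia, ran the other way. Its log2 signals were -4.05, -4.41 and -4.11 on the BSA arrays, -4.82, -5.38 and -4.60 with Rspo2, -4.52, -4.53 and -5.30 with Wnt3a, and -4.93, -4.84 and -4.50 with both proteins. The BSA arrays lay above all other arrays. The log2 change was -0.74 with Rspo2, -0.59 with Wnt3a and -0.56 with both proteins, and none passed (limma adjusted p = 0.058, 0.0862 and 0.0881). On 3 of the 9 treated arrays the probe was not above background, and the direction turned with normexp for Rspo2 (0.33) and with slide as a block for both proteins (0.38).

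The groups did not overlap for 1 gene higher (Hoxb9) and 1 lower (Hoxb8) with Rspo2, where 26.3% of all detected probes were higher and 17.2% lower without overlap. With Wnt3a it was none higher and 2 lower (Hoxa9 and Hoxb8; background 25.9% and 19.6%), of which Hoxa9 was above background on no Wnt3a array and on 1 BSA array, so that its values were ordered mostly within the background. With both proteins against BSA it was 2 higher (Hoxb7 and Hoxb9) and 2 lower (Hoxa5 and Hoxb8; background 30.9% and 23.1%). Against Wnt3a it was 3 higher (Hoxa9, Hoxb7 and Hoxb9) and 1 lower (Hoxa5; background 10.7% and 10.6%). Hoxa9 was above background on no Wnt3a array and was detected only through the arrays of both proteins, so its separation there was fixed by the detection rule. The shares in the comparisons with BSA were near or below the background. With 3 arrays a side, an exact permutation test of a single gene has a smallest two-sided p of 0.1.

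Of the HoxA genes other than Hoxa5, none had a change that passed the test. Hoxa3, needed for thymus and parathyroid formation, had -2.25, -3.29 and -2.99 with BSA, -3.18, -3.47 and -3.71 with Rspo2, -3.78, -3.32 and -3.08 with Wnt3a, and -3.23, -3.12 and -3.12 with both proteins. BSA array 1 was the highest of the 12, and each treatment overlapped the other BSA arrays. Its log2 changes were -0.61, -0.55 and -0.31 (limma adjusted p = 0.116, 0.122 and 0.361).

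The anterior and middle HoxB genes and Hoxc4 likewise gave overlapping groups. Hoxb3, a hindbrain gene, ran from -2.95 to -2.50 (BSA), -3.13 to -2.57 (Rspo2), -3.27 to -2.82 (Wnt3a) and -3.09 to -2.20 (both proteins). Hoxb4, which supports blood stem cells, was the most variable of these, with -3.57, -4.07 and -5.37 on the BSA arrays and -5.90, -4.79 and -4.00 with Wnt3a. Its arrays within a group spread more widely than the groups differed, and its log2 changes were 0.38, -0.56 and 0.20. Hoxb5, a gene of trunk neural crest and blood stem cells, ran from -3.77 to -3.58 with BSA and -3.76 to -3.38 with both proteins.

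Hoxb6, a trunk gene, ran from -1.57 to -1.27 (BSA), -1.62 to -1.44 (Rspo2), -1.89 to -1.52 (Wnt3a) and -1.70 to -1.25 (both proteins). Its largest log2 change was -0.32 with Wnt3a (limma adjusted p = 0.0938), and the second Hoxb6 probe gave -0.14 there. Hoxc4, the only HoxC gene detected, ran from -2.80 to -2.65 with BSA and -2.78 to -2.39 with both proteins, and its log2 changes were -0.27, -0.05 and 0.10. Among these genes the change against BSA that was largest in size was that of Hoxb4 with Wnt3a, and every treated group overlapped BSA.

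The 4 clusters also hold transcripts that are not Hox genes, and these were looked at after their values were seen. The array had 10 probes for 9 such transcripts, of which 2 were detected, both on all 12 arrays. The first, 5730446D14Rik, is named Hoxaas2 by RefSeq, a long noncoding RNA at chr6:52165674-52169451 on GRCm38.p6. It runs opposite to the HoxA genes, its probe lies between those of Hoxa2 and Hoxa3, and its interval overlaps the end of the annotated Hoxa3 gene. Its log2 signals were -3.17, -3.07 and -3.01 on the BSA arrays, -3.84, -4.27 and -4.30 with Rspo2, -4.48, -4.44 and -4.18 with Wnt3a, and -4.43, -4.66 and -4.41 with both proteins. All 9 treated arrays were below the 3 BSA arrays, and the Wnt3a arrays overlapped those of both proteins.

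5730446D14Rik was called lower with each treatment, at a log2 change of -1.05 with Rspo2 (SE 0.134, limma adjusted p = 0.00309), -1.28 with Wnt3a (limma adjusted p = 0.000214) and -1.41 with both proteins (limma adjusted p = 2.86e-05). Both proteins and Wnt3a differed by -0.13 (limma adjusted p = 0.654). The interaction was 0.92 (limma adjusted p = 0.0194, under 2-fold), so that the change with both was smaller in size than the sum of the single changes. On slide 1 the difference between the Rspo2 array and the BSA mean was -0.76. With slide as a block the changes were -0.76 with Rspo2 and -0.93 with Wnt3a (limma adjusted p = 0.0477 and 0.0456), and with quantile and median scaling they were between -0.98 and -0.89, all under 2-fold. With normexp no change passed (limma adjusted p = 0.996, 0.429 and 0.266). Of the adjacent genes, Hoxa2 was not above background on any array and was not tested. Hoxa3 was lower with each treatment but did not pass the test, with the values given above. The second transcript, TC1432492, whose probe lies between those of Hoxb3 and Hoxb2, had log2 changes of -0.13, -0.23 and 0.00, and none was called.

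**Figure D5:**
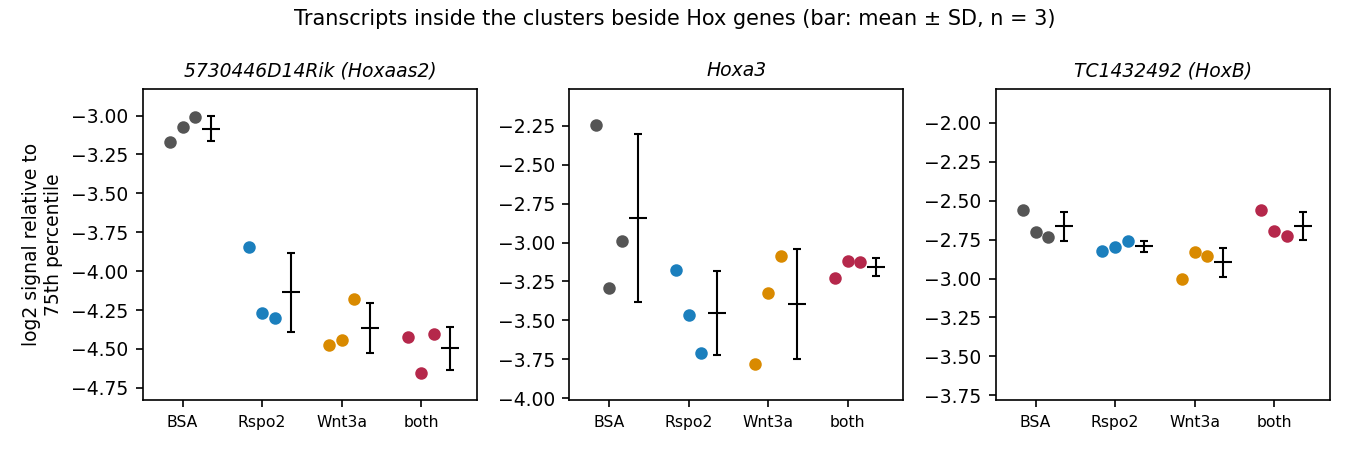
log2 signal over the array's 75th percentile for the noncoding transcript 5730446D14Rik, its HoxA neighbour Hoxa3 and the HoxB transcript TC1432492 on each array, by treatment, with mean ± SD of 3 arrays. All 9 treated arrays of 5730446D14Rik lie below its 3 BSA arrays, while the groups of Hoxa3 overlap.

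Proteins that work with or upon Hox genes were counted from lists. TALE homeodomain proteins (Pbx, Meis and Pknox) bind DNA together with Hox proteins, and all 9 with a probe were detected. None was called in any comparison. At an adjusted p under 0.05 without the fold threshold 3 were higher and 1 lower with both proteins. Over all detected probes 21.9% were higher and 17.3% lower. Among the higher genes was Pbx3 at 0.39 on the log2 scale (limma adjusted p = 0.00177). Pbx2 and Meis2 gave -0.01 and 0.04. The list's median log2 change with both proteins was 0.16, against 0.04 over all detected probes.

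Of 26 Polycomb genes with a probe 24 were detected, and none was called in any comparison. With both proteins 5 of the 24 were higher and 1 lower without the fold threshold, where 21.9% of all detected probes were higher and 17.3% lower. Among the higher were the histone-binding subunits Rbbp4 (0.35) and Rbbp7 (0.26), and the list's median was 0.04. Of 15 names of Trithorax and other activating genes with a probe 14 were detected. The undetected name was an older name of 1 of these 14 genes, so that each gene of the list had a detected probe. With both proteins 1 was called lower, Kdm6b, a demethylase that removes the Polycomb mark, at -1.05 (limma adjusted p = 0.00387). Over all detected probes 5.08% were called with both proteins. Without the fold threshold 1 of the 14 was higher and 5 lower, the called gene included, against the same 21.9% and 17.3%. The list's median was -0.07. Its core subunits Ash2l, Wdr5 and Dpy30 gave 0.10, 0.13 and 0.34, of which Dpy30 passed without the fold threshold (limma adjusted p = 0.0105). Dot1l, a histone methyltransferase that acts with MLL fusion proteins on Hox genes, had an interaction of 1.25 (limma adjusted p = 0.0267): it was -0.93 with Rspo2, -0.89 with Wnt3a and -0.56 with both proteins.

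Retinoic acid is a classic inducer of Hox genes. Of 17 retinoid genes with a probe 11 were detected. With both proteins 3 of the 11 were called, 2 higher and 1 lower, where 5.08% of all detected probes were called. Without the fold threshold 5 of the 11 were higher and 3 lower, the called genes included, against 21.9% and 17.3% of all detected probes. Cyp26b1, which degrades retinoic acid, had a log2 change of 2.47 (limma adjusted p = 0.000774), and against Wnt3a it was at least 4.03-fold higher. Stra6, the retinol uptake receptor, had 2.29 (limma adjusted p = 0.0108) and was at least 3.64-fold higher than with Wnt3a. Both were above background on the 3 arrays of both proteins and on 1 BSA array, and on none of Rspo2 or Wnt3a. They were detected only through the arrays of both proteins, where they were high. Their calls therefore follow in part from the detection rule. Dhrs3, which turns retinal back to retinol, fell by 2.03 on the log2 scale with both proteins against BSA (limma adjusted p = 8.15e-08). The receptors Rarg, Rxra and Rxrb gave -0.16, -0.59 and -0.12, of which Rxra passed without the fold threshold (limma adjusted p = 0.00561). The list's median with both proteins was -0.05.

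Cdx genes, which activate Hox genes in the embryo, and the ParaHox genes were hardly represented: 1 of 6 with a probe was detected, Gsx1, and it was not called. Of 19 genes that flank the clusters 16 were detected and none was called in any comparison. With both proteins 6 of the 16 were higher without the fold threshold and none lower, with a list median of 0.25. Over all detected probes 21.9% were higher and 17.3% lower, with a median of 0.04. Atp5g3 and Mtx2, which lie beside HoxD, gave 0.35 and 0.36. Whether the HoxD probes themselves can detect their genes was not tested.

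Of 77 homeobox genes outside the clusters 37 were detected, against 12 of 38 Hox genes. With both proteins 1 was called, Prrx2, a mesenchymal homeobox gene, at 1.12 (limma adjusted p = 7.17e-06). Over all detected probes 5.08% were called. Without the fold threshold 6 of the 37 were higher and 10 lower, against 21.9% and 17.3% of all detected probes, and the list's median was -0.13. Dlx5 gave -0.82 with both proteins and 0.36 with Rspo2 (limma adjusted p = 0.000248 and 0.0442), with an interaction of -1.07 (limma adjusted p = 0.00374).

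Wnt feedback genes were counted beside the Hox genes: of 11 with a probe 6 were detected, and 5 were called higher with both proteins. Over all detected probes 5.08% were called in either direction. Axin2 was among the detected only through the arrays of both proteins, and the other 4 called genes (Tcf7, Apcdd1, Znrf3 and Notum) were above background on all 12 arrays. Axin2, a feedback inhibitor of the Wnt pathway, was at least 9.39-fold higher with both proteins than with BSA (limma adjusted p = 1.14e-05), and Tcf7, a nuclear partner of beta-catenin, rose by 2.57 on the log2 scale (limma adjusted p = 2.99e-07). With Rspo2 alone none of the 6 was called, and with Wnt3a alone 1 was, Tcf7.

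Marker lists moved with the treatments too, and their part in the Hox values was not tested. The summed signal of the basal markers, as a multiple of the 75th percentile, ran from 133 to 140 on BSA arrays, 171 to 193 for Rspo2, 185 to 206 for Wnt3a and 220 to 258 for both proteins. That of the mesenchymal markers was 569 to 576, 576 to 663, 612 to 668 and 591 to 614, and that of the luminal markers 0.207 to 0.419, 0.221 to 0.316, 0.192 to 0.215 and 0.148 to 0.362. The basal sum was highest with both proteins, the group in which Hoxb9 was highest and Hoxa5 lowest, but such a sum follows its brightest probe, here Acta2. The basal list itself was split with both proteins, with Krt14 called higher at 1.24, and with Acta2 at 0.78, Krt17 at -0.35 and Trp63 at -0.40 passing below 2-fold (limma adjusted p = 8.29e-06, 7.26e-05, 0.00836 and 0.0143). The luminal list was split too, with Krt8 called lower at -1.15 and Krt7 passing below 2-fold at 0.75 (limma adjusted p = 0.000366 and 0.023). Of the 9 detected mesenchymal markers 3 were lower at an adjusted p under 0.05 and none higher, against 17.3% and 21.9% of all detected probes. Of these, Pdgfra was called at -1.37 (limma adjusted p = 8.77e-06). The immune list had 2 of 5 markers detected, at sums of 1.62 to 1.72 (BSA), 2.13 to 2.27 (Rspo2), 2.12 to 2.27 (Wnt3a) and 1.73 to 1.77 (both proteins). The endothelial list had 1 of 4, with sums of 2.43 to 2.6 with BSA and 1.63 to 1.89 in the treated groups, and the adipocyte list had none of 4, with Plin1, Cidec and Lep not above background on any array.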

How the data were processed

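The authors scanned the arrays and deposited intensity values from Agilent Feature Extraction 9.5.3.1, corrected for local background and for spatial trends but not scaled from array to array. Their deposited ratio table, scaled to each array's 75th percentile, served as an alternative. Of 520548 spot values, 1327 with outlier flags were left out, and spots of a probe were averaged. The 75th percentile was subtracted from the log2 intensities array by array. Detected probes, 22751 of 41174, were fitted with limma 3.58.1 in R 4.3.3 as 4 group means over 12 arrays (prior degrees of freedom 2.74), with Benjamini-Hochberg adjustment over all of them. Probe names came from the files, and 22951 probes were renamed or checked through RefSeq accessions of GRCm38.p6. The fit was tested on simulated data. The Hox genes and the other gene lists were chosen with earlier results of these data known. Named are the Hox genes and, for each list, members called in any comparison and up to 4 of its brightest detected members. Some members that enter the counts and medians are not reported here individually. There were 29 alternatives planned and 1 added. The number of arrays and signal over background limit the precision. The sources call the replicates biological, and p-values measure the spread between these monolayers.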

Additional observations from a re-analysis of the deposited data

Results flagged for a closer look

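No detected Hox gene had an interaction between Rspo2 and Wnt3a that passed the limma test over all detected probes. Among the lists given above 10 genes had an interaction that was called, where 1.93% of all detected probes were called. The transcript 5730446D14Rik passed without the fold threshold. Each was singled out because the change with both proteins differed from the sum of the single changes. Lying inside HoxA, 5730446D14Rik had an interaction of 0.922 (log2, SE 0.189, limma adjusted p = 0.0194), the 2 single changes being together larger in size than the change with both. This interaction passed in 15 of 25 alternatives, ranged from -0.137 to 1.07, turned direction with normexp (limma adjusted p = 0.959) and had a limma adjusted p of 0.276 with slide as a block. In the retinoid list it was 2.93 for Cyp26b1 (SE 0.55, limma adjusted p = 0.0143), 4.03 for Stra6 (SE 0.83, limma adjusted p = 0.0196), -1.92 for Dhrs3 (SE 0.115, limma adjusted p = 3.52e-05) and -1.13 for Crabp2, a retinoic acid binding protein (SE 0.184, limma adjusted p = 0.00741). For Cyp26b1 and Stra6, the Rspo2 and Wnt3a groups were not above background on any array, so the size of the interaction is not certain. Both genes were detected only through the arrays of both proteins, so these calls follow in part from the detection rule. Of the Wnt feedback genes, Axin2 had 4.1, Tcf7 1.38 and Notum, a secreted enzyme that inactivates Wnt proteins, 1.2 (limma adjusted p = 0.00364, 0.00194 and 0.00831). Axin2 was not above background on any BSA, Rspo2 or Wnt3a array, so its value is that of a fit to background signals in 3 of 4 groups and not a measured size. Dot1l had 1.25, Dlx5 -1.07 and Krt5, a basal keratin, 1.63 (limma adjusted p = 0.0267, 0.00374 and 0.0075), Krt5 being above background on 10 arrays.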

How the results depend on the processing

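The 12 detected Hox genes fell to 7 when a probe had to be well above background on all 12 arrays and were 17 with the looser flag. The count of called Hox genes, 0 in each comparison, became 1 for Rspo2 against BSA with median scaling and with the slide block (Hoxb7), 1 for Wnt3a against BSA with the mean of all probes (Hoxb8), and 1 for both proteins against BSA with the 75th percentile over probes above background on all arrays (Hoxa5), with median scaling (Hoxb7) and without BSA array 1 and array 1 of both proteins (Hoxa9), and 2 without a fold threshold. For both proteins against Wnt3a it became 1 with the methods' t-test unadjusted, with only the groups compared and without those 2 arrays (each Hoxa9), and 2 without a fold threshold. For the interaction it became 1 with median scaling, with an intensity trend and without those 2 arrays. Leaving out 1 array at a time gave 0 to 1 for both proteins against BSA (Hoxa9 without BSA array 1, Hoxb7 without BSA array 2, Hoxa5 without BSA array 3), 0 to 1 against Wnt3a and 0 to 1 for the interaction (Hoxa9 without BSA array 1 in each). Since Hoxa9 was detected only through the arrays of both proteins, its calls follow in part from the detection rule. The cause was not tested.

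With both proteins against BSA, Hoxb9 stayed past an adjusted p of 0.05 in 26 of 29 alternatives (log2 change 0.595 to 0.928) and Hoxa5 in 25 of 28 (-1.5 to -0.703), not with normexp, the slide block or the adjusted t-test. Against Wnt3a it was 9 of 29 and 18 of 28. Of 1679 changes of single Hox genes over the alternatives, 1510 kept their direction and side of the threshold, 34 came past it, 36 lost it, and 99 that had not been called changed sign. Median scaling shifted the median of all probes by 0.164, 0.327 and 0.216 for Rspo2, Wnt3a and both proteins against BSA, by -0.111 for both against Wnt3a and by -0.275 for the interaction. Normexp shifted it by 0.139 for Rspo2, -0.101 for both proteins against BSA and -0.161 for the interaction, and the 75th percentile over probes above background on all arrays by -0.122 for Wnt3a, -0.113 for both proteins against BSA and 0.108 for the interaction. With the replicate number as a block the count of called Hox genes was 0 in each comparison, and against Wnt3a Hoxa5 and Hoxb9 had adjusted p = 0.0677 and 0.0635; arrays with the same number correlated from -0.412 to 0.272, so the numbers did not pair them.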
